A study of Caenorhabditis elegans with 4 samples.

Results

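The genes described here are 10 members of the basic leucine zipper (bZIP) family of transcription factors in Caenorhabditis elegans, grouped around atf-2: atf-2, ces-2, atf-7, zip-2, skn-1, cebp-1, zip-3, zip-10, fos-1 and jun-1. They are 10 of 30 bZIP genes considered and of 41614 genes to which the deposited table could be matched. atf-2 was picked from the measured values, because both dve-1 mutant libraries lay near 0.509 times the wild type mean, so its difference between the genotypes is given as a description without a test. The other members were taken from the same family, with earlier results of these data known. Of the 10, 9 had a matched transcript accession and 8 passed the filter of at least 1 FPKM in at least 2 libraries. ces-2 was below the filter, and zip-2 matched no accession and was not analysed here.

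A bZIP protein binds DNA through a basic region and pairs with another bZIP protein, identical or different, through a zipper of spaced leucines. Which partners pair decides which DNA sites are bound, so members of the family can act together or against each other. In the worm they are known for timing cell fates and cell deaths, and for responses to oxidants, pathogens, axon injury, cold and failing mitochondria. DVE-1, the protein affected in the mutant, is a homeodomain factor of the mitochondrial unfolded protein response, in which the bZIP protein ATFS-1 is the central activator.

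RNA was extracted from whole larvae reared at 25 °C, about 1200 animals per sample. Wild type animals and animals carrying the dve-1 allele uf171 were each sequenced as 2 libraries, and all 4 were labelled L4, the last larval stage, although the protocol text speaks of L1 animals at collection. The labels name no transgene, and nothing in them ties the libraries to separate cultures, so each p-value measures only how these libraries spread, and that spread may be technical. Values are FPKM, fragment numbers divided by transcript length and by library depth, which allow levels to be compared between genes of different length. In whole animals, fewer cells of a type and less RNA per cell cannot be told apart.

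The libraries held an estimated 14080000 to 15360000 fragments. dve-1 itself read 14.2 and 13.9 FPKM in the wild type pair and 22.98 and 21.1 FPKM in the mutant pair, which does not check the genotype labels, since the labels do not describe the lesion. Marker genes showed that the libraries also differ in ways that cross the genotypes. The summed FPKM of 13 oocyte genes was 530 and 379 in wild type and 319 and 1211 in mutant replicates 1 and 2, and that of 25 major sperm protein genes was 15883 and 10795 against 6383 and 18312. Cuticle collagens, 141 genes, summed to 41305 and 39703 against 47259 and 66904 FPKM. No oocyte or sperm gene was listed at 0, and 16 collagens were in some library. Further lists gave summed FPKM of 448 to 543 in wild type and 445 to 576 in the mutant for 9 germline genes, of which pgl-1 stood at 0 in wild type replicates 1 and 2, and of 4063 to 5255 and 5526 to 5849 for 9 intestine genes. They gave 237 to 242 and 214 to 225 for 8 neuronal genes, with rab-3 at 0 in mutant replicate 1, 3665 to 3712 and 2843 to 3187 for 5 body muscle genes, and 441 to 573 and 599 to 744 for 5 pharynx genes. The lower body muscle sum does not hold for each gene, since 3 of the 5 were higher and 2 lower in the mutant on the log2(FPKM + 1) scale.

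atf-2 (K08F8.2) lies on chromosome II at 8751986 to 8753940 on the plus strand (WBcel235) and has 1 annotated transcript of 1408 nucleotides in 6 exons. With CES-2, its protein is known to affect the timing of lin-48 transcription in the excretory system. Replicates 1 and 2 of wild type held atf-2 at 87.9 and 82.7 FPKM, and those of the dve-1 mutant held it at 44.2 and 42.6 FPKM. Both mutant libraries were low, both wild type libraries were high, and the groups did not overlap. The means were 85.3 ± 3.69 and 43.4 ± 1.11 FPKM (SD, n = 2 each), a ratio of 0.509 and a difference of -0.96 on the log2(FPKM + 1) scale. The replicates differed by 1.06 times in wild type and by 1.04 times in the mutant. The values rest on roughly 1857 and 1789 fragments in wild type and 891 and 845 in the mutant, where counting error alone is 2.32% to 3.44%. Because the gene was chosen for this pattern, no p-value is given. Of the 14664 genes tested, 270 (1.84%), atf-2 included, had groups that did not overlap and a log2 difference at least as far below 0.

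**Figure D1:**
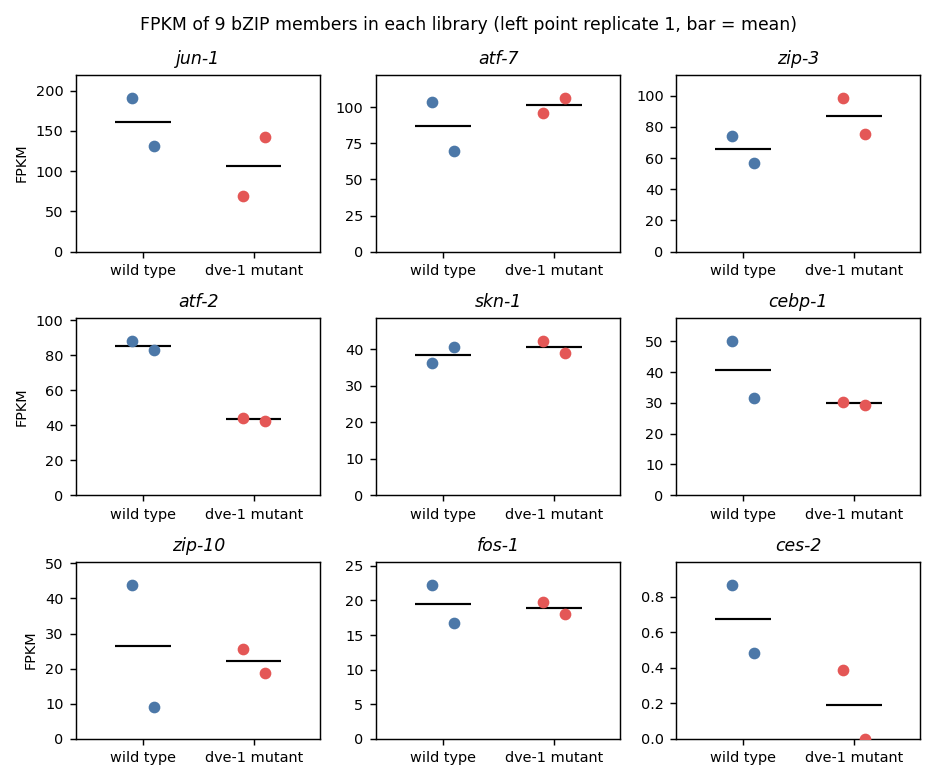
FPKM (linear axes starting at 0) of the 9 members with values, 1 panel a gene, with wild type libraries in blue, dve-1 mutant libraries in red, replicate 1 on the left and bars at the group means. atf-2 falls into separate pairs at 82.7 to 87.9 and 42.6 to 44.2 FPKM, whereas zip-10 spans 9.19 to 43.9 FPKM within wild type alone.

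Of the 3 nearest protein-coding genes on either side of atf-2, rol-6 was also lower in both mutant libraries, by less than atf-2, and fut-1 had no values. On its left, mak-1, a kinase gene on the same strand, read 112 and 184 FPKM in the wild type pair and 107 and 132 FPKM in the mutant pair, so its groups overlapped. rol-6, a collagen gene further left, read 620 and 597 against 491 and 482 FPKM, so its groups did not overlap, with a log2 difference of -0.32. idpb-4, between them on the opposite strand, read 4.05 and 5.18 against 7.06 and 19.2 FPKM, higher in both mutant libraries. On its right, K08F8.7 on the opposite strand read 11.95 and 4.66 against 4.84 and 7.25 FPKM, and pah-1, phenylalanine hydroxylase, read 52.0 and 67.8 against 96.4 and 59.5 FPKM, both with overlapping groups.

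Genes of the molting cycle were mostly lower by sign in the mutant, though none passed the test. Of 11 such genes, 10 were lower by sign, against 53.8% of all tested genes, and 6 of them had groups that did not overlap, against 16.2%. The median log2 difference was -0.52, against -0.02 over all tested genes. Their summed FPKM was 3264 to 3651 in wild type and 2004 to 2349 in the mutant, and none was listed at 0. bli-1 and bli-2, cuticle collagens of the adult, read 430 and 450 against 284 and 227 FPKM, and 1629 and 1324 against 818 and 832 FPKM. wrt-2, a hedgehog-related gene, read 182 and 191 against 120 and 84.6 FPKM. mlt-7, a peroxidase, ran the other way at 14.8 and 13.5 against 32.2 and 31.5 FPKM. With limma, 0 of the 11 passed an adjusted p under 0.05 over all genes, and 5 had an unadjusted p under 0.05, against 4.6% of all tested genes. The part of the molting cycle in the difference of atf-2 was not tested.

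**Figure D2:**
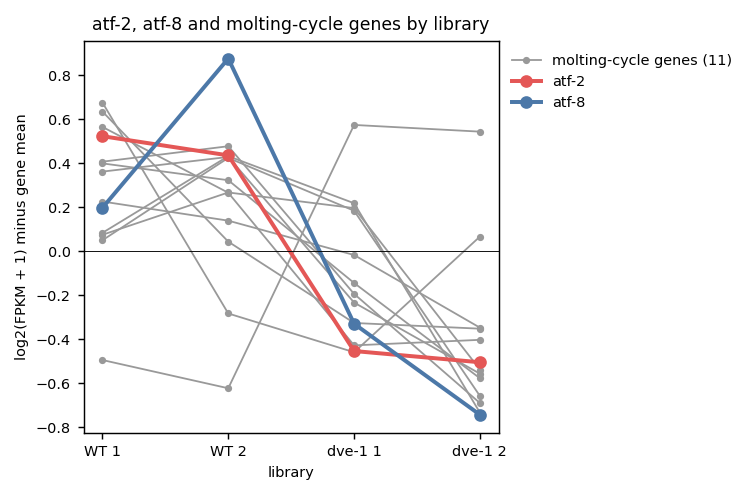
Level of atf-2 (red), atf-8 (blue) and 11 molting-cycle genes (grey) in each library, as log2(FPKM + 1) minus the mean of the gene over the 4 libraries. atf-2 is above its mean in both wild type libraries and below it in both mutant libraries, 10 of the 11 molting-cycle genes have a lower mutant mean, and mlt-7 runs the other way.

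The protein-coding genes with the pattern closest to that of atf-2 were named by Euclidean distance between log2(FPKM + 1) values centred on each gene's mean, over the 4 libraries and among 10976 genes with a mean of at least 5 FPKM. They were C02F5.14 (distance 0.10), C06C3.10 (0.11), W09C2.7 (0.11), clec-258 (0.16), a C-type lectin gene, and grl-12 (0.18), a hedgehog-related gene. C02F5.14 read 632 and 562 against 301 and 282 FPKM, and grl-12 read 14.3 and 13.4 against 6.69 and 7.60 FPKM. The collagen genes bli-2 and col-110, singled out after their values were seen, ranked 7 and 11 at distances of 0.20 and 0.21. These genes are lower in the mutant because the pattern they were matched to is. The cuticle collagens as a list mostly ran the other way. Of 109 tested, 81 were higher and 28 lower by sign, with a median log2 difference of 0.56, against 46.2% higher over all tested genes. Their groups did not overlap for 25 higher and 8 lower, against 11.9% and 16.2% of all tested genes, and 0 passed. The median level of the tested collagens was 72.3 and 92.9 FPKM in the wild type pair. It was 57.0 FPKM in mutant replicate 1, the lowest of the libraries, and 278 FPKM in mutant replicate 2.

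ces-2 (ZK909.4; chromosome I, 14961497 to 14965361, plus strand) encodes a bZIP protein known for allowing the death of sister cells of pharyngeal neurons by repressing ces-1. It was barely detected, at 0.87 and 0.48 FPKM in wild type and 0.39 FPKM in mutant replicate 1, and it was listed at 0 in mutant replicate 2. At its length of 1006 nucleotides this is roughly 13, 7 and 6 fragments, so no difference was testable at this depth. lin-48, the shared target of CES-2 and ATF-2, read 3.77 and 3.50 FPKM in the wild type pair and 3.999 and 4.96 FPKM in the mutant pair (log2 difference 0.24, limma adjusted p = 0.9995), slightly higher by sign where atf-2 was lower. ces-1 read 0.26 and 0.34 against 0.27 and 0.46 FPKM, and the cell death activator egl-1 read 0.45 and 0.44 against 0.47 and 1.42 FPKM, both below the filter. The caspase gene ced-3 read 19.4 and 18.6 against 19.0 and 24.9 FPKM. The list around CES-2 had 8 tested genes, not all of them cell death genes: ced-3, ced-4, ced-9, dnj-11, egl-38, hlh-2, hlh-3 and lin-48 itself. All 8 lay above 0 with a median log2 difference of 0.16, and 0 passed, in a table where 46.2% of tested genes were higher by sign.

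None of the other 7 tested members differed between the genotypes past the threshold, an adjusted p under 0.05 over all 14664 genes with limma. The same test called 19 genes, 0.13% of those tested (0.0682% higher and 0.0614% lower in the mutant), and 0 of the 7 had an unadjusted p under 0.05. Separate groups, with no overlap between genotypes, occurred in 2 of these 7, lower in the mutant for cebp-1 and higher for zip-3, against 28.1% of all tested genes, 16.2% lower and 11.9% higher. By sign 3 of the 7 were lower, against 53.8% of all tested genes, and their median log2 difference was 0.07.

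The stress and immunity members came next in order of role. atf-7 (C07G2.2; chromosome III, 4491627 to 4499045, minus strand) encodes a factor that the p38 kinase PMK-1 phosphorylates in pathogen defence. It read 103.7 and 69.7 FPKM in the wild type pair and 95.9 and 107 FPKM in the mutant pair, with wild type replicate 2 low and the groups overlapping (log2 difference 0.25, 95% interval -0.46 to 0.95, adjusted p = 0.9995 by limma). Without wild type replicate 2 the difference was -0.04. All of this came from 1 of its 2 matched accessions, as the other was listed at 0 in every library, and 2 further annotated transcripts were not matched.

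Along the p38 pathway 7 genes were tested, 3 higher and 4 lower by sign (median -0.02), and 0 passed. tir-1, the adaptor at its head, read 12.4 and 8.66 against 15.4 and 14.9 FPKM (log2 difference 0.50). vhp-1, a phosphatase that switches such kinases off, read 55.0 and 24.1 FPKM in the wild type pair and 12.6 and 23.1 FPKM in the mutant pair, so wild type replicate 1 stood apart. pmk-1 itself read 24.3 and 24.4 against 27.3 and 20.4 FPKM. Immune genes that depend on this pathway had a median of 0.19 over 6 tested members, of which 4 were higher by sign and 0 passed. Among them dod-24 read 31.05 and 41.5 against 66.8 and 50.2 FPKM, higher in both mutant libraries (log2 difference 0.68, adjusted p = 0.9995 by limma). sysm-1 read 59.6 and 79.1 against 111 and 70.8 FPKM, and irg-4 read 22.04 and 41.3 against 70.3 and 27.9 FPKM, both with overlapping groups.

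For zip-2, whose protein drives infection response genes, only downstream genes were measured. irg-1, its best known target, read 1.85 and 1.67 FPKM in the wild type pair and 2.68 and 1.04 FPKM in the mutant pair. irg-2 read 12.2 FPKM in wild type replicate 1 and 1.56, 1.84 and 1.43 FPKM in the other libraries. Wild type replicate 1 alone was high for irg-2, and the groups overlapped.

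skn-1 (T19E7.2; chromosome IV, 5651039 to 5660384, minus strand), the worm relative of Nrf factors and a regulator of detoxification, was the steadiest member. It read 36.3 and 40.7 FPKM in the wild type pair and 42.2 and 38.9 FPKM in the mutant pair, a span of 1.16 times from lowest to highest with overlapping groups. The log2 difference was 0.07 with a 95% interval of -0.39 to 0.54 (limma adjusted p = 0.9995), and it was -0.01 without wild type replicate 1. Only 1 of its 2 matched accessions was above 0, and 2 annotated transcripts were not matched.

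Of 11 tested regulators of SKN-1, 4 were higher and 7 lower by sign, with a median of -0.03 and 0 past the threshold. sgk-1, a kinase that can phosphorylate SKN-1, read 4.21 and 12.5 FPKM in the wild type pair and 20.2 and 24.1 FPKM in the mutant pair, so the groups were apart while wild type itself varied (log2 difference 1.46, 95% interval -0.05 to 2.97, adjusted p = 0.9995 by limma). wdr-23, which marks SKN-1 for degradation, read 45.4 and 41.0 against 38.7 and 43.3 FPKM. elt-3, a GATA factor of the skin, read 43.3 and 33.9 against 34.7 and 22.5 FPKM, and pgam-5, a mitochondrial phosphatase, read 154 and 161 against 141 and 133 FPKM. SKN-1 targets had 10 tested members, 2 higher and 8 lower by sign, with a median of -0.13 and 0 past the threshold. The glutathione S-transferase gene gst-4, the usual reporter of SKN-1, read 48.0 and 60.1 against 48.3 and 46.6 FPKM, and gst-10 read 286 and 417 against 259 and 262 FPKM. gcs-1, the enzyme that limits glutathione synthesis, read 53.95 and 50.8 against 52.6 and 46.9 FPKM. dhs-8 ran the other way at a low level, at 0.40 and 2.09 against 2.203 and 4.42 FPKM, with groups that did not overlap. Its log2 difference of 0.999, the largest among the tested targets, had a 95% interval of -0.54 to 2.53 (limma adjusted p = 0.9995).

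cebp-1 (D1005.3; chromosome X, 1452695 to 1453868, minus strand) encodes a C/EBP-like protein that acts below the kinase DLK-1 in axon regrowth and synapse formation. It read 50.04 and 31.5 FPKM in the wild type pair and 30.4 and 29.4 FPKM in the mutant pair. Only wild type replicate 1 was high, and wild type replicate 2 lay just above both mutant libraries. The log2 difference was -0.40 (95% interval -1.19 to 0.40, limma adjusted p = 0.9995), and leaving out wild type replicate 1 gave -0.07, leaving out the other -0.72. Counting error at its estimated 445 to 808 fragments is 3.52% to 4.74%, less than the gap between the wild type libraries. Of 11 tested genes of the DLK-1 pathway, 4 were higher and 7 lower by sign, with a median of -0.0043 and 0 past the threshold. dlk-1 read 95.6 and 83.7 against 108 and 86.6 FPKM. The p38 kinase gene pmk-3 read 11.9 and 4.96 FPKM in wild type and 7.18 FPKM in mutant replicate 1, and was listed at 0 in mutant replicate 2. svh-1, a growth factor of axon regrowth, read 5.22 and 5.32 against 4.42 and 3.85 FPKM.

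zip-3 (W07G1.3; chromosome II, 13951904 to 13957457, minus strand) encodes a protein known to hold back the mitochondrial unfolded protein response by antagonising ATFS-1. It read 74.0 and 57.1 FPKM in the wild type pair and 98.7 and 75.1 FPKM in the mutant pair. The groups touched without overlapping, since wild type replicate 1 and mutant replicate 2 were nearly equal. The means were 65.5 ± 11.9 and 86.9 ± 16.7 FPKM (SD, n = 2 each), and the log2 difference of 0.40 had a 95% interval of -0.27 to 1.07 (limma adjusted p = 0.9995). It was 0.21 to 0.60 over the alternative settings, always higher in the mutant. atfs-1 had a log2 difference of 0.24 and also had no overlap between groups. Of its 4 matched accessions, 1 was listed at 0 in wild type replicate 1 and mutant replicate 2 and read 15.8 and 7.51 FPKM in the others. wwp-1, a ubiquitin ligase that acts on ZIP-3, read 110 and 81.8 against 90.2 and 107 FPKM. hsp-60 read 404 and 282 against 458 and 476 FPKM, higher in both mutant libraries (log2 difference 0.47, 95% interval -0.15 to 1.09, limma adjusted p = 0.9995). Of the 7 genes listed around ATFS-1 and ZIP-3, 6 lay above 0, against 46.2% of all tested genes, with a median of 0.08, and 0 passed. Their groups did not overlap for 3 higher and 1 lower, against 11.9% and 16.2% of all tested genes.

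zip-10 (T27F2.4; chromosome V, 11650079 to 11650762, minus strand) is known from cold shock, where it promotes death of the animal. It was the least reproducible member, at 43.9 and 9.19 FPKM in the wild type pair and 25.5 and 18.7 FPKM in the mutant pair. Both mutant libraries lay between the wild type libraries, which differed by 4.78 times. These values rest on roughly 417, 89, 231 and 166 fragments, so counting error of 4.90% to 10.6% is far smaller than that gap. The log2 difference of 0.09 had a 95% interval of -2.18 to 2.37 (limma adjusted p = 0.9995), and leaving out wild type replicate 1 gave 1.16, leaving out the other -0.98. isy-1, a repressor of zip-10, was steady at 54.7 and 52.9 against 53.9 and 52.1 FPKM. The aspartyl protease gene asp-17, which rises with zip-10 in the cold, read 2.98 and 1.87 against 0.97 and 1.22 FPKM, lower in both mutant libraries (log2 difference -0.69, limma adjusted p = 0.9995), and the cysteine protease gene cpr-3 read 21.045 and 16.2 against 19.2 and 12.8 FPKM. All 3 genes of this list were lower by sign and 0 passed.

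fos-1 and jun-1 encode the worm counterparts of the AP-1 pair. fos-1 (F29G9.4; chromosome V, 6003601 to 6016087, plus strand), needed for the anchor cell to breach the basement membrane, read 22.3 and 16.8 FPKM in the wild type pair and 19.8 and 18.1 FPKM in the mutant pair. Both mutant libraries lay inside the wild type range (log2 difference -0.03, 95% interval -0.67 to 0.61, limma adjusted p = 0.9995), and the sign turned without wild type replicate 1, to 0.16. Just 1 of its 2 annotated RefSeq transcripts was matched. Of 10 tested genes linked to FOS-1 and JUN-1 in the anchor cell and gonad, 4 were higher and 6 lower by sign, with a median of -0.04 and 0 past the threshold. zmp-1, a matrix metalloprotease made by the anchor cell, read 8.59 and 3.6003 against 2.97 and 3.44 FPKM. egl-43, a zinc finger factor above fos-1, read 3.86 and 3.795 against 3.21 and 1.74 FPKM, and nhr-67, a nuclear receptor in the same cell, read 2.51 and 2.98 against 2.18 and 1.84 FPKM.

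jun-1 (T24H10.7; chromosome II, 9113157 to 9132231, plus strand) had the highest summed level and the most transcripts of the members. It read 191 and 131 FPKM in the wild type pair and 69.6 and 143 FPKM in the mutant pair, with mutant replicate 1 alone far below the rest and overlapping groups. The log2 difference was -0.66 (95% interval -1.90 to 0.57, limma adjusted p = 0.9995). Of 8 matched accessions, 4 were listed at 0 in every library. The leading one read 104.4 and 73.1 FPKM in wild type and 84.7 FPKM in mutant replicate 2, which is 54.5%, 55.7% and 59.4% of the gene, and it was listed at 0 in mutant replicate 1. The remaining accessions together read 87.0 and 58.3 FPKM in the wild type pair and 69.6 and 57.9 FPKM in the mutant pair, a log2 difference of -0.16. Leaving out mutant replicate 1 gave -0.15. Elsewhere too an exact 0 stood beside high values, as 47 genes with a median above 50 FPKM were listed at 0 in some library. The low sum in mutant replicate 1 rests on the 0 of this leading transcript, whose value there is uncertain. What lies behind that 0 was not tested.

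**Figure D3:**
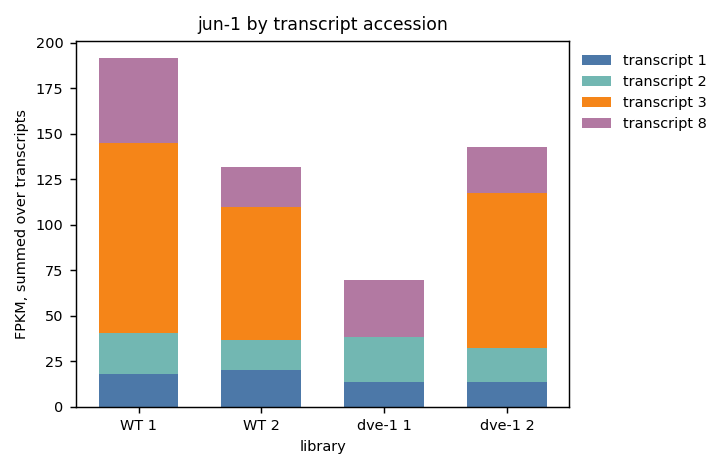
FPKM of the 4 jun-1 transcript accessions above 0, stacked by library (WT, wild type; dve-1, mutant), numbered in order of accession. The transcript that holds 54.5% to 59.4% of the gene in the other libraries is listed at 0 in mutant replicate 1, and the remaining transcripts sum to 57.9 to 87.0 FPKM.

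On the per-length scale, mean levels over the 4 libraries ran from jun-1 at 134 FPKM through atf-7 at 94.0, zip-3 at 76.2, atf-2 at 64.4, skn-1 at 39.5, cebp-1 at 35.3, zip-10 at 24.3 and fos-1 at 19.2 to ces-2 at 0.43 FPKM. Neighbours in this order overlapped in their ranges over the libraries except at 2 places, between atf-2 and skn-1 and between fos-1 and ces-2. The gap below atf-2 was narrow, at 42.6 FPKM for its lowest library and 42.2 FPKM for the highest of skn-1. The order of the means changed between the genotypes, but the fall of atf-2 follows from its choice for lower mutant values. In wild type, jun-1 at 161 FPKM was followed by atf-7 at 86.7, atf-2 at 85.3, zip-3 at 65.5, cebp-1 at 40.8 and skn-1 at 38.5, where atf-2 lay inside the range of atf-7 and above both libraries of zip-3. The place of cebp-1 above skn-1 there rested on wild type replicate 1, at 50.04 FPKM. In wild type replicate 2 cebp-1 read 31.5 FPKM, below skn-1 at 36.3 and 40.7 FPKM in the wild type pair. In the mutant, jun-1 at 106 FPKM and atf-7 at 101 were followed by zip-3 at 86.9, atf-2 at 43.4, skn-1 at 40.5 and cebp-1 at 29.9, where atf-2 lay below both libraries of zip-3. zip-10, fos-1 and ces-2 came last in both. Among protein-coding genes, jun-1 stood at percentile 92.1, atf-2 at 84.8, fos-1 at 60.5 and ces-2 at 20.1.

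Across the wider family, 22 of 30 genes were tested, 5 had no matched accession and 3 were below the filter. Of the 21 tested genes other than atf-2, 8 were higher and 13 lower by sign, with a median log2 difference of -0.03. With limma 0 of them passed and 1 had an unadjusted p under 0.05, against 4.6% of all genes. That gene was atf-8 (F17A9.3; chromosome V, 6105607 to 6107530, plus strand), which read 82.0 and 132 FPKM in the wild type pair and 56.6 and 42.3 FPKM in the mutant pair. Both mutant libraries were lower than both wild type libraries, and the means were 107 ± 35.3 and 49.4 ± 10.2 FPKM (SD, n = 2 each). Its log2 difference of -1.07 exceeded that of atf-2 in size but had a 95% interval of -1.97 to -0.18, and the adjusted p was 0.883 by limma.

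Several better known relatives were steady. xbp-1, which drives the endoplasmic reticulum stress response, read 75.1 and 84.9 against 81.4 and 76.9 FPKM, and let-607, a CREBH relative, read 89.9 and 95.9 against 95.7 and 86.6 FPKM. crh-1, the worm CREB, summed to 59.4 and 44.7 against 55.7 and 48.8 FPKM over 7 accessions. crh-2 read 128 and 123 against 113 and 110 FPKM, with groups that did not overlap and a log2 difference of -0.17 (limma adjusted p = 0.9995). For xbp-1 the 95% interval of the log2 difference was -0.44 to 0.41, and for let-607 it was -0.44 to 0.38, so differences within those bounds are not excluded.

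**Figure D4:**
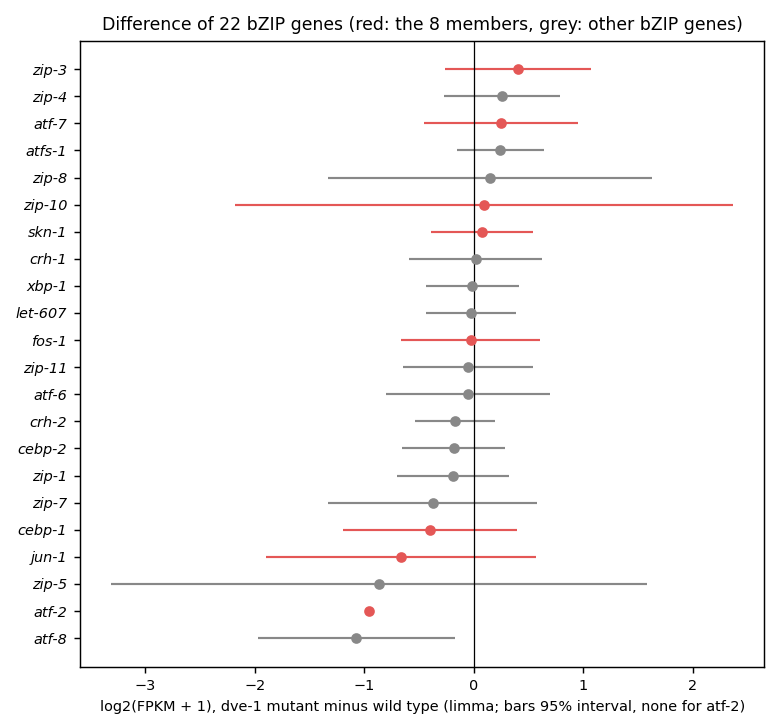
Difference in log2(FPKM + 1), dve-1 mutant minus wild type, for 22 bZIP genes, with 95% intervals from limma except for atf-2, which was chosen from this contrast. Members are in red and other bZIP genes in grey, and of the 21 intervals drawn only that of atf-8, -1.97 to -0.18, does not reach 0.

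Wild type replicate 1 was the library in which bZIP genes were most often highest. Leaving out atf-2, it held the highest value for 11 of the 21 tested bZIP genes and for 4 of the 7 members, against 33.8% of all tested genes. It was at least 1.5 times every other library for cebp-1, zip-5, zip-7 and zip-10, 4 of 22, against 3.99% of all tested genes, a count made after the values were seen. zip-5 read 78.9 FPKM there and 15.9, 25.0 and 14.6 FPKM elsewhere, where 1 of its 3 accessions read 49.4 FPKM in wild type replicate 1 and was listed at 0 in the others. zip-7 read 23.3 FPKM there and 13.5, 14.9 and 12.1 FPKM elsewhere. irg-2 and vhp-1, described above and picked out after their values were seen, were also highest in that library. Other genes of the lists, such as sgk-1, hsp-60 and sysm-1, were highest in a mutant library, and no count over the lists was made.

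**Figure D5:**
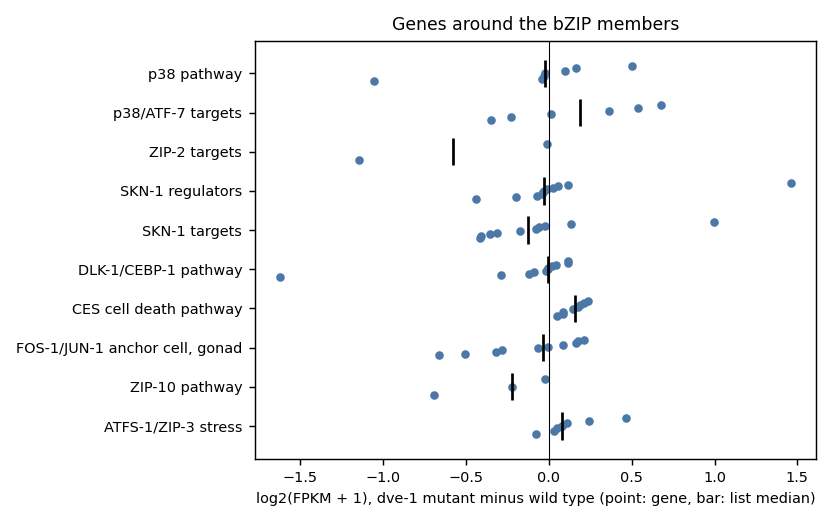
Difference in log2(FPKM + 1), dve-1 mutant minus wild type, of the tested genes in 10 lists around the members (points), with the list median as a bar. Medians of lists with at least 5 tested genes run from -0.13 for SKN-1 targets to 0.19 for p38-dependent immune genes, and the points farthest from 0 are pmk-3, which is listed at 0 in 1 library, and sgk-1 at 1.46.

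Over the 10 lists of genes upstream or downstream of the members, 72 of 82 genes were tested and 0 passed with limma, with 0 at an unadjusted p under 0.05. The groups of 20 of the 72 did not overlap, against 28.1% of all tested genes.

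Some member values may share reads with other genes. Annotated genes overlap atf-7, zip-3, zip-10, skn-1, fos-1 and jun-1 on the opposite strand, among them csn-5 at the end of skn-1, skp-1 at the end of zip-10, rpt-2 at the end of fos-1 and the snoRNA T24H10.12 within jun-1. On the same strand, C16D2.1 overlaps jun-1, C07G2.5 overlaps atf-7, the noncoding RNA T19E7.27 lies within skn-1 and the snoRNA F29G9.19 lies within fos-1. F29G9.19 read 321 and 246 against 256 and 273 FPKM, well above fos-1 itself at 16.8 to 22.3 FPKM. The noncoding RNA F29G9.14, on the opposite strand within fos-1, read 1665.5 FPKM in wild type replicate 1 and was listed at 0 in the other libraries. fos-1 was also highest in wild type replicate 1, and a link between the 2 was not tested. The strandedness of the libraries is not given in the sources used here, so fragments in the shared stretches cannot be assigned from these data. atf-2, cebp-1 and ces-2 overlap no annotated gene.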

How the data were processed

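The deposited table gives 1 value per RefSeq transcript accession and library, deposited by the authors and treated here as FPKM, although the header names no unit; whether libraries were scaled to each other is not given in the sources used here. The submitters' processing notes list TopHat2, Cufflinks and the ce11 build, without versions. Accessions were matched to WBcel235 RefSeq genes, ignoring versions (47645 of 52491 matched), and FPKM summed per gene. Coordinates and transcript lengths are from Ensembl release 115. Depth was estimated from 1509 single-transcript genes, whose low values fall in steps of 1 fragment (60.0% to 62.9% within 0.1 of a whole number), assuming scaling to mapped fragments only; counting errors rest on this. The genotypes were compared on log2(FPKM + 1), which understates changes of low genes, by a two-sided limma test (3.58.1; R 4.3.3; variance trended on level). Genes needed 1 FPKM or more in 2 or more libraries, and p-values were Benjamini-Hochberg adjusted over all 14664 of them. The step was tested on simulated data. Python 3.11.15 and pandas 2.3.3 prepared tables.

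The members, gene lists and settings were chosen with earlier results of these data known. Named genes were the members, the other bZIP genes, up to 4 genes per list by smallest p, dve-1 and the 5 genes nearest to atf-2 in pattern; other named genes, from the fixed lists or neighbours of atf-2, were chosen for their role after their values were seen. No sequences are shown.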

Additional observations from a re-analysis of the deposited data

How the results depend on the processing

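The log2 difference of atf-2 ran from -1.002 to -0.91 over 13 alternatives, and the median over the 22 bZIP genes ran from -0.19 to 0.03, above 0 without mutant replicate 2. Leaving aside atf-2, for which no test is given, no member and no gene of the 10 lists was called under any alternative that kept all 4 libraries. The count of called genes, 19 in all, was 86 without the trend, 3 with no filter on low values, 10 with at least 5 FPKM, 10 with a pseudocount of 0.1, 0 among protein-coding genes only and 0 to 0 when any 1 library was left out. With the replicate number as a block it was 0 over all tested genes, list genes and members included. Replicate deviations of the genotypes correlated at -0.19, and with the pairing crossed, an alternative added after seeing the data, the count was again 0. Some differences turned sign when 1 library was left out. They ranged from -0.036 to 0.53 for atf-7 (below 0 without wild type replicate 2), from -0.98 to 1.16 for zip-10 (-0.98 without wild type replicate 2, and -0.12 when mutant replicate 1 was omitted), from -0.0058 to 0.15 for skn-1 (below 0 without wild type replicate 1) and from -0.22 to 0.16 for fos-1 (0.16 without wild type replicate 1, and 0.03 when mutant replicate 2 was omitted). The cause was not tested. With the leading accession only, jun-1 gave -3.26, because that accession is listed at 0 in mutant replicate 1, and without it, an alternative also added after seeing the data, -0.16. With 2 libraries a genotype, the median standard error of a log2 difference was 0.26. Depth left too few fragments for a test of ces-2.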
